A study of Mus musculus with 36 samples.

Results

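The step from late night to early day was examined in the SHAM mouse heart, by comparing the 3 arrays of mice killed at ZT23 with the 3 arrays of mice killed at ZT03. ZT stands for zeitgeber time, by convention counted from lights on, so that lights would come on between these times. The light schedule is not among the labels used here. These 6 arrays are all those whose titles read SHAM with ZT23 or ZT03, out of 36 arrays in the series, and each array is 1 mouse. SHAM mice had the operation without narrowing of the aorta and are labelled normal. The other mice of the series had transverse aortic constriction (TAC), which puts the left ventricle under pressure. All mice lived 8 weeks after surgery, and the left ventricle was frozen and its RNA measured on Affymetrix arrays. Mice were killed at 6 times, ZT03, ZT07, ZT11, ZT15, ZT19 and ZT23, and each pairing of surgery and time had 3 mice, described as biological replicates. SHAM ZT11 and ZT15 (the dusk step) and TAC ZT23 and ZT03 serve below as comparisons that share no array with the SHAM dawn step. Strain, sex and age are not among the labels used here.

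The circadian clock of heart cells is a loop in which ARNTL (BMAL1) and CLOCK drive transcription of their own repressors, the period and cryptochrome genes, and of the nuclear receptors REV-ERBα (Nr1d1) and REV-ERBβ (Nr1d2), which in turn repress Arntl through ROR elements. The loop also drives output factors such as Dbp, Tef and Hlf, which act on D-box elements and are opposed by Nfil3. Around the change from the active night to the resting day, a nocturnal rodent's heart meets a fall in body temperature, heart rate and feeding, and genes of heat shock, lipid storage and fuel use are known to follow such signals.

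Values are on a log scale, taken as log2, and are relative: each probe set was centred to a median of 0 over the 18 SHAM arrays before deposit. A value is therefore a departure from the SHAM median of that gene. No level can be set against that of another gene, nor a SHAM level against a TAC level, and cell type markers could be followed between arrays but not used to check the tissue by their level. A difference is the mean at ZT03 minus the mean at ZT23, with the standard error of limma's fit over the 18 SHAM arrays. The Benjamini-Hochberg adjustment ran across all 12393 genes, and a gene passed where its adjusted p was below 0.05. In whole tissue, fewer cells of a type and less RNA per cell cannot be told apart.

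Several arrays stood apart in markers of other tissues. The mean of 8 white adipocyte markers was -0.41, 0.76 and 0.60 in the ZT23 arrays and -0.25, -0.39 and -0.07 in the ZT03 arrays, so 2 of the 3 ZT23 arrays lay above all ZT03 arrays. ZT23 replicate 3 also had an airway marker mean of 0.87, against -0.03 and -0.01 in the other two. Replicates 1 and 3 of ZT03 lay farther from their group mean than replicate 2, with an SD over genes of 0.099, 0.096 and 0.069. The part of these features in the results below was not tested, except where a value without an array or with the adipocyte mean as a covariate is given.

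Between ZT23 and ZT03, 1 gene passed the test, Nr1d1, which rose. That is 0.00807% of the genes. At an unadjusted p below 0.05 there were 1836 genes (14.8%), of which 1201 were higher (9.69%) and 635 were lower (5.12%) at ZT03. All 3 ZT03 arrays lay above all 3 ZT23 arrays for 1587 genes (12.8%) and below them for 672 genes (5.42%). The difference was above 0 for 7577 genes (61.1%), with a median over all genes of 0.025. Most differences were small, since 17 genes differed by at least 1.5-fold, and 7 of these had an unadjusted p below 0.05. The next smallest adjusted p after Nr1d1 was 0.107, shared by 15 genes.

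Among the arrays left out in turn, ZT03 replicate 1 moved the count most. Without that array 398 genes passed (3.21%), 202 higher (1.63%) and 196 lower (1.58%). All 398 had the same sign with every array included, and 333 of them had an unadjusted p below 0.05 then. The fits share all the other arrays, which favours such agreement, so it is no separate check of these genes. No other array moved the count beyond 4, the value without ZT11 replicate 3, the array with a thymocyte marker mean of 1.82. It was 2 without ZT23 replicate 1, ZT07 replicate 1, ZT11 replicate 1 or ZT15 replicate 3. Array weights estimated by limma were 0.34, 4.08 and 0.37 for the ZT03 arrays, and with them 1696 genes passed, 1131 higher and 565 lower. Genes are named below by their values with all arrays, and those that passed without ZT03 replicate 1 are marked. That array was picked for the mark because leaving it out raised the count most. Without ZT03 replicate 3, which had a similar weight, 1 gene passed, so the mark adds no support of its own.

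Among the 4-h steps of the SHAM day, the dawn step had the fewest genes past the test with all arrays. The counts were 325 from ZT03 to ZT07 (2.62%), 22 from ZT07 to ZT11 (0.178%), 18 from ZT11 to ZT15 (0.145%), 36 from ZT15 to ZT19 (0.29%) and 9 from ZT19 to ZT23 (0.0726%). Neighbouring steps share arrays. Without ZT03 replicate 1, the counts were 398 at dawn and 591 from ZT03 to ZT07, against 10 to 43 for the other steps, so that only 1 step had more genes than dawn.

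Nr1d1 values were -0.39, -0.40 and -0.24 at ZT23 and 0.59, 0.77 and 0.58 at ZT03. Every ZT03 array lay well above every ZT23 array, and the spread within each group was small (SD 0.09 and 0.10, n = 3 each). The difference was 0.99 ± 0.08 (SE, adjusted p = 1.08e-05), a 1.99-fold rise on 1 probe set. Over the rest of the day the Nr1d1 mean went on to 1.20 at ZT07, then 0.28 at ZT11, -0.29 at ZT15 and -0.92 at ZT19, so the dawn step ran between the trough and the peak. Nr1d1 passed under every alternative tried, with a difference from 0.90 to 1.36.

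None of the other clock genes passed with all arrays. Of 12 measured repressors, Nr1d1 included, 8 were above 0 and 4 below 0, with a median of 0.084. At an unadjusted p below 0.05, 2 were higher, Nr1d1 and Nr1d2, and 1 was lower (all genes: 9.69% and 5.12%). Nr1d2, the paralogue of Nr1d1, had values of -0.78, -0.83 and -0.80 at ZT23 and -0.12, -0.48 and -0.77 at ZT03. Its ZT23 arrays were tightly grouped, all ZT03 arrays lay above them, and the ZT03 arrays were spread widely, with replicate 3 close to the ZT23 level. The difference was 0.35 ± 0.11 (SE, adjusted p = 0.219). Cry1, a cryptochrome repressor, had values of 0.19, 0.03 and 0.12 at ZT23 and -0.15, -0.14 and -0.03 at ZT03, with every ZT03 array below every ZT23 array. Its difference was -0.22 ± 0.06 (SE, adjusted p = 0.191). The period genes differed in sign. Per1 differed by 0.24 ± 0.12 (SE, adjusted p = 0.362), Per2 by -0.14 ± 0.07 (SE, adjusted p = 0.353) and Per3 by 0.05 ± 0.05. Bhlhe40 and Bhlhe41, repressors that compete for E-boxes, differed by 0.17 ± 0.08 and 0.12 ± 0.06. Timeless differed by 0.14 ± 0.07 (SE, adjusted p = 0.368) and passed without ZT03 replicate 1 (adjusted p = 0.0453), but its 2 probe sets had opposite signs. Cry2 differed by -0.10 ± 0.08, and the casein kinase genes Csnk1e and Csnk1d by -0.11 ± 0.07 and 0.03 ± 0.04.

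Among 5 measured activators, 2 were above 0 and 3 below 0. At an unadjusted p below 0.05, 0 were higher and 1 was lower (all genes: 9.69% and 5.12%). That 1 gene was Arntl, whose values were 0.82, 0.66 and 0.56 at ZT23 and 0.42, 0.36 and 0.43 at ZT03. Every ZT03 array lay below every ZT23 array, and ZT23 replicate 1 was the highest of the 6. The difference was -0.28 ± 0.07 (SE, adjusted p = 0.159), -0.59 after quantile normalization. Arntl had its highest mean of the day at ZT23, 0.68 ± 0.13 (SD, n = 3), and was down to -0.16 by ZT07. Its partners lay near 0 change, with 0.03 ± 0.07 for Npas2 and 0.00 ± 0.04 for Clock, and the 2 probe sets of each had opposite signs. The ROR genes Rora and Rorb, activators at the same element as the REV-ERBs, differed by -0.06 ± 0.05 and 0.12 ± 0.08.

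The 10 measured output factors had 2 above 0 and 8 below 0, with a median of -0.038. Of the 10, 0 were higher and 1 was lower at an unadjusted p below 0.05 (all genes: 9.69% and 5.12%). Hlf had values of -0.32, -0.30 and -0.31 at ZT23 and -0.60, -0.48 and -0.48 at ZT03, all ZT03 arrays below all ZT23 arrays, and a difference of -0.21 ± 0.08 (SE, adjusted p = 0.249). Dbp stood near its daily low in both groups, with values of -0.88, -0.91 and -1.03 at ZT23 and -0.53, -0.66 and -0.94 at ZT03. ZT03 replicate 3 lay among the ZT23 arrays, and the difference was 0.23 ± 0.15 (SE, adjusted p = 0.454). By ZT07 the Dbp mean was 1.82, so most of its daily gain came after ZT03. Nfil3 had values of 0.21, 0.31 and 0.35 at ZT23 and -0.09, -0.02 and 0.41 at ZT03, with ZT03 replicate 3 the highest of the 6 arrays and the other two below all ZT23 arrays. Its difference was -0.19 ± 0.10 (SE, adjusted p = 0.389). Tef, Klf9, Klf10, Klf15, Wee1, Usp2 and Tspan4 had adjusted p values from 0.462 to 0.978, and none differed by more than 0.08 in size.

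**Figure D1:**
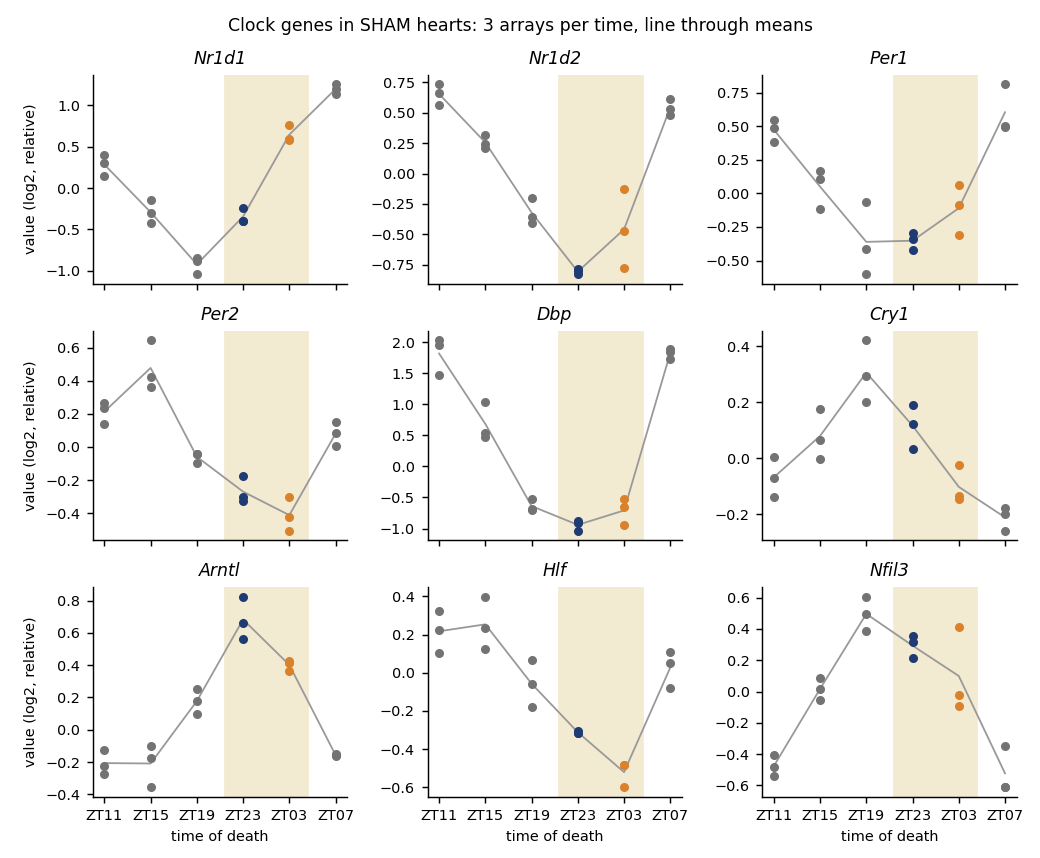
Values of 9 clock genes (log2, relative to the SHAM median) in every SHAM array, in the order ZT11 to ZT07, with the line through the means of 3 arrays and the dawn step shaded (ZT23 blue, ZT03 orange). Nr1d1 climbs from -0.35 to 0.65 across the shaded step, while Dbp and Per1 gain most after ZT03 and Arntl is highest at ZT23.

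The upstream sequences of 4 genes are shown because Nr1d1 alone passed the test, Arntl and Cry1 are the clock genes next to it in p that lay lower at ZT03, and Dnaja1 is a chaperone gene whose dawn and dusk steps differed. Each is the 250 bases before the annotated start in RefSeq, build GRCm38.p6, written 5′ to 3′ on the gene's strand. The positions are chr11:98775378-98775627, minus strand for Nr1d1, chr7:113207215-113207464, plus strand for Arntl, chr10:85185055-85185304, minus strand for Cry1 and chr4:40722218-40722467, plus strand for Dnaja1. Capitals mark matches on either strand to the E-box CACGTG, the ROR element TNGGTCA, the D-box TTATGNAA and the heat shock element GAANNTTC.
Nr1d1: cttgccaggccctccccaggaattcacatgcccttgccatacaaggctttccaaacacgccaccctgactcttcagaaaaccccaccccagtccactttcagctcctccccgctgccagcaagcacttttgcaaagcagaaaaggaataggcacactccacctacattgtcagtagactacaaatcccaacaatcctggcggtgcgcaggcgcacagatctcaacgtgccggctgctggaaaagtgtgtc
Arntl: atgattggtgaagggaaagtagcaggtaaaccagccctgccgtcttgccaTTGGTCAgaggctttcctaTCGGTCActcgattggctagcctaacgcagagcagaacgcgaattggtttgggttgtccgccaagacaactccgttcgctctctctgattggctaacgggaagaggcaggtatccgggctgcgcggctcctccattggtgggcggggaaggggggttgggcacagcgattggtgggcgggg
Cry1: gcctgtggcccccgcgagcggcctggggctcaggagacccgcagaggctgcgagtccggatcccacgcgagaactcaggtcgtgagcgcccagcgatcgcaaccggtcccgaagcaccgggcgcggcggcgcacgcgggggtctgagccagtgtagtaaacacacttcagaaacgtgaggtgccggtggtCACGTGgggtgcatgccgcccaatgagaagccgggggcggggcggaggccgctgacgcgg
Dnaja1: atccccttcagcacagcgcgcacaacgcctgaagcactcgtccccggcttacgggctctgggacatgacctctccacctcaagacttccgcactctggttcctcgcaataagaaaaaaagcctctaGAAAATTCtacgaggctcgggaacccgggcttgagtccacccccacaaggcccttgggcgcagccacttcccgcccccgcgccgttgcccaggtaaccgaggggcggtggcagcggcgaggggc

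The Arntl window held 2 ROR elements, starting at -200 and -181 from the gene start, the Cry1 window an E-box at -60 and the Dnaja1 window a heat shock element at -124. No match was found in the Nr1d1 window. Over all 32851 RefSeq promoter windows of this length, the E-box was present in 6.02%, the ROR element in 9.19%, the D-box in 3.07% and the heat shock element in 6.69%. These shares are per window, and a gene can have several windows, so counts of genes are not like them. Of 20 measured genes of the chaperone list with a window, 8 held a heat shock element, among them Dnaja1, Hspa1a and Hspa1b. Those 20 genes had 29 windows, of which 8 held it. Of the 22 listed clock genes with a window, Per1, Bhlhe41, Tef, Klf15 and Tspan4 also held an E-box. Dnaja1 is 1 of 6 chaperone genes whose dawn and dusk steps differed. Of the 32 genes with a window whose steps differed on the lower side at dawn, Dnaja1 alone held a heat shock element. A match is a description of the letters.

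The 11 genes next in p on the higher side did not pass with all arrays (adjusted p from 0.107 to 0.126), and all 11 passed without ZT03 replicate 1. A clone-like symbol with a p in this range is left unnamed. Tnfrsf12a, the receptor for the cytokine TWEAK, had values of 0.10, -0.10 and -0.17 at ZT23 and 0.51, 0.45 and 0.46 at ZT03. The ZT03 arrays were nearly equal and lay far above the ZT23 arrays, and the difference was 0.53 ± 0.10 (SE, adjusted p = 0.107), and 0.50 and 0.56 on its 2 probe sets. It passed without ZT03 replicate 1 (adjusted p = 0.0312), without ZT11 replicate 1 (0.00551) or 3 (0.00625) and after quantile normalization (0.0185). Frat2, an inhibitor of the kinase GSK3 in Wnt signalling, had values of -0.02, -0.28 and -0.08 at ZT23 and 0.15, 0.18 and 0.25 at ZT03 and a difference of 0.32 ± 0.06 (SE, adjusted p = 0.107). The Frat2 groups did not overlap, although ZT23 replicate 2 lay well below the other two.

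The groups did not overlap for any of the remaining higher genes. Cfi, the complement inhibitor factor I, had values of -0.01, -0.09 and -0.04 at ZT23 and 0.16, 0.23 and 0.35 at ZT03, and Inhbe, an inhibin beta chain, -0.09, -0.02 and -0.26 at ZT23 and 0.17, 0.12 and 0.23 at ZT03. Col5a3, a chain of collagen V, had values of 0.17, 0.13 and 0.09 at ZT23 and 0.29, 0.44 and 0.43 at ZT03. It was the only gene of the 11 whose ZT23 arrays all lay above 0, and its 2 probe sets differed by 0.08 and 0.43. Sult1e1, the oestrogen sulfotransferase, differed by 0.27 ± 0.05, Il1r2, a decoy receptor for interleukins, by 0.25 ± 0.05, and Hoxb3, a homeobox factor, by 0.25 ± 0.05. These factors act in hormone breakdown, cytokine control and patterning. Oas1c, of the oligoadenylate synthetase family, differed by 0.26 ± 0.05, Pde6b, a phosphodiesterase known from photoreceptors, by 0.21 ± 0.04, and Krtap5-2, a keratin-associated protein, by 0.36 ± 0.07. Oas1c passed without ZT23 replicate 1 (adjusted p = 0.029). Several of these genes are better known from other tissues, and their level in these hearts cannot be read from centred values.

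On the lower side, the 12 genes next in p had adjusted p values from 0.107 to 0.131, and all 12 passed without ZT03 replicate 1. G0s2, an inhibitor of the triglyceride lipase ATGL, had values of 0.12, 0.58 and 0.41 at ZT23 and -0.42, -0.41 and -0.74 at ZT03. All ZT03 arrays lay below all ZT23 arrays, and the difference of -0.90 ± 0.16 (SE, adjusted p = 0.107) was the largest in size of these 23 genes. G0s2 passed without ZT03 replicate 1 (adjusted p = 0.0225) and without ZT15 replicate 3 (0.00227). Tfrc, the transferrin receptor that takes up iron, had values of 0.41, 0.42 and 0.44 at ZT23 and -0.02, 0.13 and -0.15 at ZT03. The Tfrc arrays at ZT23 were almost equal, those at ZT03 were all lower, and the difference was -0.44 ± 0.10 (SE, adjusted p = 0.131), with all 3 probe sets below 0. Bmp6, a ligand that signals iron load, had values of 0.16, -0.04 and -0.01 at ZT23 and -0.26, -0.32 and -0.17 at ZT03 and a difference of -0.28 ± 0.06 (SE, adjusted p = 0.131), with groups that did not overlap. Dnajb1, a co-chaperone, is described with the heat shock genes.

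Opa1, the GTPase that fuses inner mitochondrial membranes, had values of 0.09, -0.05 and 0.00 at ZT23 and -0.21, -0.15 and -0.26 at ZT03 and a difference of -0.22 ± 0.05. Mmaa, which serves cobalamin metabolism in mitochondria, had values of 0.20, 0.15 and 0.12 at ZT23 and -0.07, -0.06 and -0.08 at ZT03 and a difference of -0.23 ± 0.05. In both the groups were separate, and the 3 ZT03 arrays of Mmaa lay within 0.03 of each other. Rab6a, a GTPase of Golgi traffic, differed by -0.28 ± 0.06, Ctbp2, a transcriptional corepressor, by -0.31 ± 0.06, and B3galnt2, a glycosyltransferase that acts on dystroglycan, by -0.21 ± 0.04. Chchd7 differed by -0.32 ± 0.06, Zfp617, a zinc finger protein, by -0.32 ± 0.06, and Rsrp1, a protein rich in arginine and serine, by -0.38 ± 0.08.

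**Figure D2:**
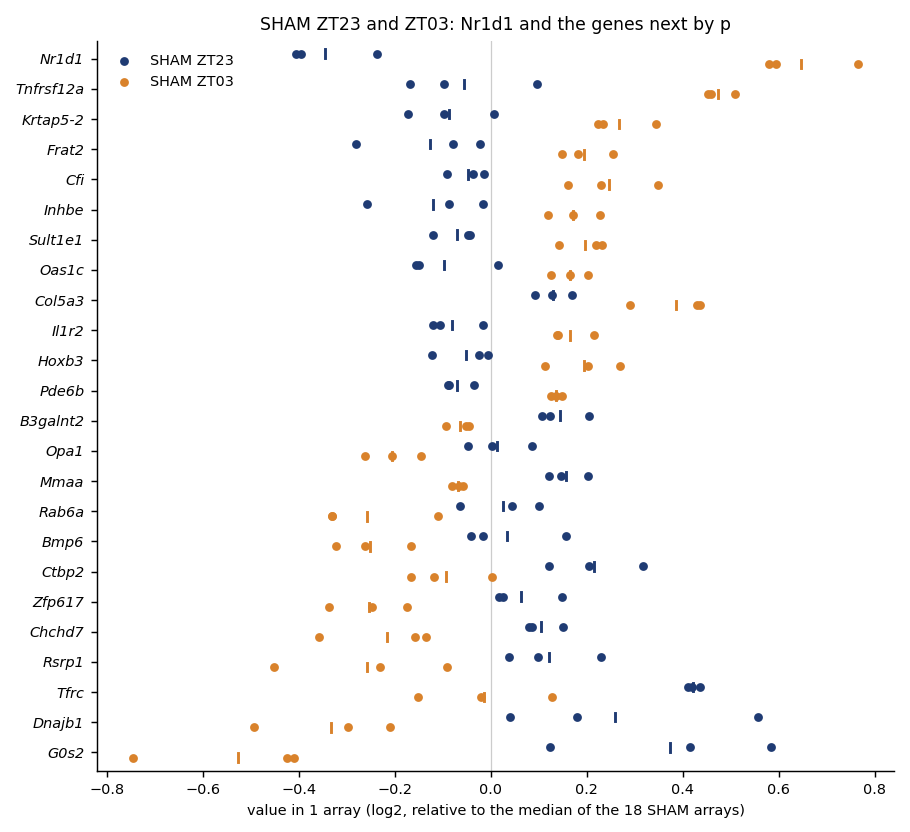
Values (log2, relative) of Nr1d1 and the 23 genes next by p in each SHAM array at ZT23 (blue) and ZT03 (orange), with a tick at the mean of each 3 arrays. In every gene shown, chosen by this difference, the 3 ZT03 arrays lie on 1 side of the 3 ZT23 arrays, and only Nr1d1 passed.

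Genes of the cytosolic chaperone list lay mostly lower at ZT03. Chaperones refold proteins, and heat shock factor induces many of them. The list also holds mitochondrial chaperonin genes and a heat shock factor gene. Of 23 measured members, 19 were below 0 and 4 above, with 8 lower and 0 higher at an unadjusted p below 0.05 (all genes: 5.12% lower), a median of -0.117 against 0.025 for all genes, and none past the test with all arrays. Dnajb1 had values of 0.04, 0.18 and 0.56 at ZT23 and -0.30, -0.21 and -0.49 at ZT03. All ZT03 arrays lay below all ZT23 arrays, ZT23 replicate 3 was the highest, and the difference was -0.59 ± 0.12 (SE, adjusted p = 0.107), with both probe sets below 0. Ahsa1, an activator of the HSP90 ATPase, had values of 0.12, 0.11 and 0.14 at ZT23 and 0.01, -0.01 and -0.10 at ZT03, again with separate groups, and a difference of -0.16 ± 0.05 (SE, adjusted p = 0.188). Dnaja1, a co-chaperone of HSP70, had values of 0.03, 0.10 and 0.40 at ZT23 and -0.08, -0.08 and -0.14 at ZT03 and a difference of -0.28 ± 0.10 (SE, adjusted p = 0.237).

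ZT23 replicate 3 was high for several chaperones. Hspa1b, the inducible HSP70, had values of -0.03, 0.02 and 0.91 at ZT23 and -0.18, -0.18 and -0.08 at ZT03, so its groups were separate and only that array stood far above 0. The difference was -0.45 ± 0.16 (SE, adjusted p = 0.242). The means of the list were 0.08, 0.01 and 0.19 in the ZT23 arrays and -0.08, 0.00 and -0.05 in the ZT03 arrays. Without ZT23 replicate 3, 5 members were lower at an unadjusted p below 0.05 and the median was -0.082. Without ZT23 replicate 2, 13 members were lower and the median was -0.138. The share of all genes at that p can also move with the array left out, so these counts cannot be set against 5.12%. Without ZT03 replicate 1, Dnajb1 passed on the lower side (adjusted p = 0.0336) and Hspb1, a small heat shock protein, on the higher side (0.0352). Hspb1 had values of 0.02, 0.03 and 0.22 at ZT23 and -0.16, 0.35 and 0.41 at ZT03, and ZT03 replicate 1 stood apart from the other ZT03 arrays. The constitutive members Hspa8, Hspa4 and Cryab differed by -0.17 ± 0.09, -0.02 ± 0.06 and -0.01 ± 0.04.

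**Figure D3:**
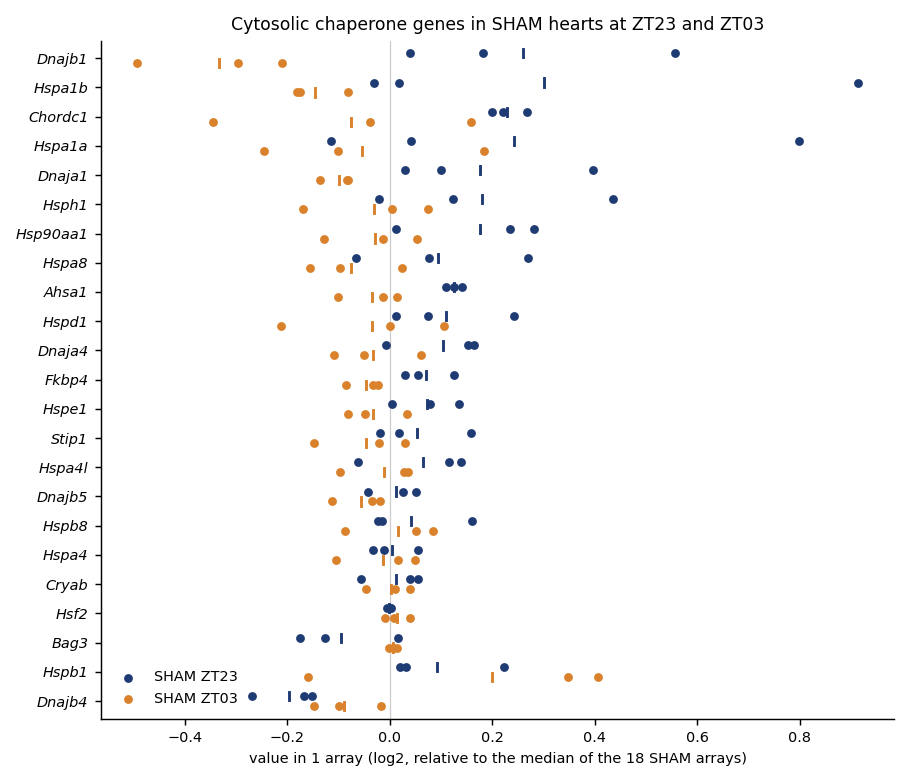
Values (log2, relative) of the 23 measured genes of the cytosolic chaperone list in each SHAM array at ZT23 (blue) and ZT03 (orange). Genes are ordered by difference, and a tick marks the mean of each 3 arrays. In 19 of the 23 the ZT03 mean lies below the ZT23 mean, and Hspa1b and Hspa1a have 1 high ZT23 array.

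Genes of triglyceride storage and lipolysis lay mostly lower at ZT03, with 14 of 15 measured members below 0, 5 lower at an unadjusted p below 0.05 (all genes: 5.12%) and a median of -0.144. Besides G0s2, Dgat2, which completes the triglyceride molecule, had values of -0.01, -0.08 and -0.12 at ZT23 and -0.24, -0.24 and -0.44 at ZT03. All ZT03 arrays lay below all ZT23 arrays, and the difference was -0.23 ± 0.06 (SE, adjusted p = 0.158). Lpin1, a phosphatidate phosphatase and coactivator of fasting genes, had values of 0.17, 0.21 and 0.08 at ZT23 and 0.06, -0.11 and -0.24 at ZT03 and a difference of -0.25 ± 0.07 (SE, adjusted p = 0.161). The Lpin1 groups were separate, with ZT03 replicate 1 nearest to the ZT23 arrays. Without that array 4 members passed, G0s2, Lpin1, Plin4 and Dgat2, all lower (all genes: 1.58% lower).

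Fat cells express much of this list, and adipocyte markers differed between the arrays. Of 8 white adipocyte markers, 6 were below 0 and none had an unadjusted p below 0.05. Adipoq, the adipokine gene, had values of -1.25, 1.89 and 1.86 at ZT23 and -0.71, -1.41 and -0.13 at ZT03, so ZT23 replicate 1 was low and the other two high. Cidea and Cidec, which are also on the storage list, had differences of -0.58 ± 0.35 and -0.32 ± 0.33. With the adipocyte mean as a covariate, the median of the list was -0.089, and 5 members were again lower at an unadjusted p below 0.05. That mean itself holds Cidea and Cidec, so a smaller difference for them is favoured by the adjustment. The shift of the median is therefore no separate check, and the share of all genes in that fit is not given.

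Sterol and fatty acid synthesis had 27 measured genes, 8 above 0 and 19 below 0. Among them 1 was higher and 2 lower at an unadjusted p below 0.05 (all genes: 9.69% and 5.12%). Hmgcs1, an early enzyme of cholesterol synthesis, had values of 0.23, 0.17 and 0.15 at ZT23 and -0.03, -0.12 and -0.15 at ZT03. The groups were separate, all 4 probe sets were below 0, and the difference was -0.29 ± 0.07 (SE, adjusted p = 0.158), past the test without ZT03 replicate 1 (adjusted p = 0.0385). Mvd, a later enzyme of the same path, differed with the opposite sign by 0.15 ± 0.06 (SE, adjusted p = 0.25). The most negative member, Fasn, the fatty acid synthase, had values of -0.40, 2.12 and 0.71 at ZT23 and -0.22, -0.49 and -0.24 at ZT03. Its difference of -1.13 ± 0.85 rested on ZT23 replicate 2 and less on replicate 3, the arrays with high adipocyte means. With the adipocyte mean as a covariate, the median of the list went from -0.076 to -0.003.

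Genes of energy supply were mostly a little lower at ZT03, and none passed with all arrays. Of 45 subunits of oxidative phosphorylation, 39 were below 0, 4 (8.89%) were lower at an unadjusted p below 0.05, near the 5.12% of all genes, and the median was -0.049. Ndufa5, a complex I subunit, had the smallest p, with a difference of -0.17 ± 0.06 (SE, adjusted p = 0.226), followed by Cycs, cytochrome c, with -0.15 ± 0.06. Of 20 genes of fatty acid oxidation and uptake, 16 were below 0 (all genes: 61.1% above 0), with a median of -0.048. With all arrays, 1 of the 20 was lower at an unadjusted p below 0.05, near the 5.12% of all genes. The smallest p belonged to the beta-oxidation enzymes Eci2 at -0.15 ± 0.06 (SE, adjusted p = 0.263) and Acaa2 at -0.13 ± 0.07. The PPAR-alpha and fasting list of 19 genes had 9 above 0 and 10 below 0. Of the 19, 4 were lower at an unadjusted p below 0.05 (all genes: 5.12%). Slc25a20, the carnitine-acylcarnitine carrier, differed by -0.25 ± 0.07 (SE, adjusted p = 0.18) and passed without ZT03 replicate 1 (0.0328). ZT03 replicate 3 was the lowest array for these lists, and without it the medians were -0.025 for oxidative phosphorylation and -0.007 for fatty acid oxidation, with no member at an unadjusted p below 0.05 in either. Without ZT03 replicate 1 the medians were -0.086 and -0.08, with 14 of 45 and 5 of 20 members lower at that p (all genes: 8.69%). The counts were 2 for oxidative phosphorylation without ZT23 replicate 1 and 2 for fatty acid oxidation without ZT23 replicate 3. The PPAR-alpha count was 2 without ZT23 replicate 2 or ZT03 replicate 3. The share of all genes in the same fits was not set beside these counts of 2.

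Of 24 genes of glycolysis and glucose uptake, 20 were below 0, 4 were lower and 0 higher at an unadjusted p below 0.05 (all genes: 5.12% lower), and the median was -0.047. The count of 4 was 2 without ZT23 replicate 2, ZT03 replicate 2 or ZT03 replicate 3, and the share of all genes in those fits is not given. Pgam1, phosphoglycerate mutase, had values of 0.07, 0.10 and -0.07 at ZT23 and -0.30, -0.24 and -0.59 at ZT03. The groups were separate, with a difference of -0.41 ± 0.12 (SE, adjusted p = 0.208). Gyg, glycogenin, which primes glycogen, had values of 0.29, 0.02 and 0.01 at ZT23 and 0.12, -0.20 and -0.28 at ZT03. ZT03 replicate 1 lay within the ZT23 range, the difference was -0.23 ± 0.09 (SE, adjusted p = 0.267), and Gyg passed without that array (0.0323).

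Genes of protein turnover also lay mostly a little lower. Among 29 genes of ubiquitin ligases and the proteasome, 27 were below 0, with 1 higher and 5 lower at an unadjusted p below 0.05 (all genes: 9.69% and 5.12%) and a median of -0.065. The lower count was 8 without ZT03 replicate 1, 3 without ZT23 replicate 2 and 1 without ZT03 replicate 3. The share of all genes was itself larger without ZT03 replicate 1, as given above, and is not given for the other fits. Fbxo32, the muscle ligase atrogin, was 1 of the 2 members above 0, with values of -0.23, -0.40 and -0.02 at ZT23 and 0.23, 0.17 and 0.05 at ZT03. All its ZT03 arrays lay above its ZT23 arrays, with a difference of 0.36 ± 0.10 (SE, adjusted p = 0.165). Psma1, a proteasome subunit, differed by -0.11 ± 0.04 (SE, adjusted p = 0.249), and Psmb4 and Psma4 passed without ZT03 replicate 1 (0.0192 and 0.0367), both lower. Of 28 cytosolic ribosomal proteins 24 were below 0 with a median of -0.06, led by Rpl27 (-0.19 ± 0.07) and Rps20 (-0.12 ± 0.06), whose 4 probe sets had mixed signs. The median of all genes lay on the other side of 0, and without ZT03 replicate 3 those of the proteasome and ribosomal lists were -0.039 and -0.03.

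The unfolded protein response list of 27 genes was split, with 18 above 0 and 9 below 0 (all genes: 61.1% above 0). Of the 27, 4 were higher and 4 lower at an unadjusted p below 0.05 (all genes: 9.69% and 5.12%). Chac1, a target of the ATF4 branch that degrades glutathione, had values of -0.22, -0.24 and -0.19 at ZT23 and 0.11, -0.02 and 0.23 at ZT03. Atf6, a sensor of the endoplasmic reticulum, had values of 0.11, 0.09 and 0.15 at ZT23 and -0.07, -0.15 and -0.16 at ZT03. The groups were separate in both but in opposite directions, with differences of 0.32 ± 0.08 (SE, adjusted p = 0.161) and -0.24 ± 0.07 (SE, adjusted p = 0.175). Among 27 genes of amino acid transport and tRNA charging, 18 were above 0 and 9 below 0. An unadjusted p below 0.05 was found for 2 higher and 3 lower members (all genes: 9.69% and 5.12%). Gars and Iars, the glycyl and isoleucyl tRNA synthetases, differed by -0.16 ± 0.04 (SE, adjusted p = 0.158) and -0.14 ± 0.05, and Gars passed without ZT03 replicate 1 (0.0425). The autophagy and lysosome list of 25 genes had 9 above 0 and 16 below 0, with Atg7, needed to form autophagosomes, at 0.12 ± 0.05 and Sqstm1, a cargo receptor, at 0.17 ± 0.07.

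Immediate early genes, which respond within minutes to stimulation, had 18 above 0 and 9 below 0 among 27 (all genes: 61.1% above 0). The median was 0.08, with 3 higher and 2 lower at an unadjusted p below 0.05 (all genes: 9.69% and 5.12%). Nr4a1, an orphan nuclear receptor of this class, had values of -0.06, -0.23 and 0.05 at ZT23 and 0.97, 0.55 and 0.87 at ZT03. Every ZT03 array was far above every ZT23 array, but the spread over the SHAM arrays was wide and the difference was 0.88 ± 0.26 (SE, adjusted p = 0.21). Ier3, which acts in stress survival, had the opposite sign, with values of -0.51, -0.41 and -0.24 at ZT23 and -0.74, -0.68 and -0.68 at ZT03 and a difference of -0.32 ± 0.09 (SE, adjusted p = 0.197). Egr1, a zinc finger factor of this class, had values of -0.07, 0.05 and 0.05 at ZT23 and -0.05, 0.33 and 1.43 at ZT03 and was far above 0 in ZT03 replicate 3 alone.

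Glucocorticoid-induced genes had 13 above 0 and 10 below 0 among 23. The unadjusted p was below 0.05 for 3 higher and 2 lower members (all genes: 9.69% and 5.12%). Ddit4, which restrains mTOR, had values of -0.06, 0.01 and -0.01 at ZT23 and -0.13, -1.17 and -0.97 at ZT03. ZT03 replicate 1 lay near the ZT23 arrays and the other two far below, so that the difference was -0.74 ± 0.26 (SE, adjusted p = 0.236) with all arrays and -1.05 (adjusted p = 0.0328) without that array. Tat, tyrosine aminotransferase, differed by 0.20 ± 0.06 (SE, adjusted p = 0.182). Per1, Klf9 and Klf15 are also known glucocorticoid targets and are given with the clock genes. The insulin, FOXO and mTOR list of 22 genes had 8 above 0 and 14 below 0. This list had 5 higher and 1 lower at an unadjusted p below 0.05 (all genes: 9.69% and 5.12%). Its smallest p belonged to Fbxo32, a FOXO target, followed by Sesn2, a sestrin that restrains mTOR, at 0.12 ± 0.04.

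Of 23 genes of hypoxia and angiogenesis, 9 were above 0 and 14 below 0. Among them 2 were higher and 2 lower at an unadjusted p below 0.05 (all genes: 9.69% and 5.12%). Car9, a carbonic anhydrase, differed by 0.19 ± 0.06 (SE, adjusted p = 0.227), and Egln3, a prolyl hydroxylase that hypoxia induces, by -0.27 ± 0.10 (SE, adjusted p = 0.262). The 5 measured RNA-binding or splicing genes formed the list of cold-inducible genes, with 2 above 0 and 3 below 0. Cirbp, which is induced by mild cold, had values of -0.28, -0.36 and -0.69 at ZT23 and 0.13, -0.19 and -0.17 at ZT03. The groups were separate, ZT23 replicate 3 was the lowest, and the difference was 0.37 ± 0.11 (SE, adjusted p = 0.219). Srsf5, a splicing factor, differed by 0.20 ± 0.09 (SE, adjusted p = 0.326). ZT23 replicate 3 thus had the lowest Cirbp and, among the 6 arrays, the highest Dnajb1 and Hspa1b.

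Extracellular matrix genes were the largest list with a positive median. Of 32 members 24 were above 0, with 5 higher and 1 lower at an unadjusted p below 0.05 (all genes: 9.69% higher) and a median of 0.067. Thbs1, a matricellular glycoprotein, had values of -0.09, 0.06 and -0.01 at ZT23 and 0.12, 0.39 and 0.31 at ZT03. Col15a1, a collagen of the basement membrane zone, had values of 0.22, 0.31 and 0.27 at ZT23 and 0.38, 0.64 and 0.52 at ZT03. In both, every ZT03 array lay above every ZT23 array and ZT03 replicate 1 was the lowest of its group, and the differences were 0.29 ± 0.08 (SE, adjusted p = 0.182) and 0.25 ± 0.07 (SE, adjusted p = 0.182). Without ZT03 replicate 1, 3 members passed, Thbs1, Col15a1 and Col8a1, all higher (all genes: 1.63% higher). In that fit 10 members were higher at an unadjusted p below 0.05 (all genes: 15.9%), and the median was 0.129. The higher count was 3 without ZT23 replicate 1 or ZT03 replicate 2, fits for which the share of all genes is not given. The fibrillar collagens Col1a1, Col1a2 and Col3a1 differed by 0.07 ± 0.07, 0.09 ± 0.10 and 0.17 ± 0.12.

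Contractile and calcium genes showed no common direction. The sarcomere and Z-disc list of 28 genes had 13 above 0 and 15 below 0. Its members included 3 higher and 1 lower at an unadjusted p below 0.05 (all genes: 9.69% and 5.12%). Acta1, skeletal actin, which the loaded heart re-expresses, had values of -0.29, -0.89 and 0.03 at ZT23 and -0.03, 0.35 and 0.35 at ZT03. ZT23 replicate 3 lay above ZT03 replicate 1, so the groups overlapped, and the difference was 0.61 ± 0.21 (SE, adjusted p = 0.232). Tpm1, tropomyosin, differed by -0.30 ± 0.09 (SE, adjusted p = 0.197). Of 25 calcium handling and calcineurin genes, 8 were above 0 and 17 below 0. Here 3 were higher and 0 lower at an unadjusted p below 0.05 (all genes: 9.69% and 5.12%). Fkbp1b, a stabiliser of the ryanodine receptor, had values of -0.08, -0.17 and -0.09 at ZT23 and 0.10, 0.12 and 0.10 at ZT03 and a difference of 0.22 ± 0.06 (SE, adjusted p = 0.188). Its ZT03 arrays lay within 0.03 of each other. Rrad, a small GTPase that restrains calcium channels, differed by 0.32 ± 0.14.

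Of 23 ion channel and connexin genes, 9 were above 0 and 14 below 0. Among them 1 was higher and 1 lower at an unadjusted p below 0.05 (all genes: 9.69% and 5.12%). Kcnd3, a channel of the transient outward current, had values of -0.08, -0.06 and -0.07 at ZT23 and 0.06, 0.12 and 0.22 at ZT03, separate groups and a difference of 0.21 ± 0.06 (SE, adjusted p = 0.219). Kcnj12, of the inward rectifier current, differed by -0.17 ± 0.07. The beta-adrenergic and cAMP list of 16 genes had 7 above 0 and 9 below 0, with Pde4b, which degrades cAMP, at -0.32 ± 0.10 (SE, adjusted p = 0.226) and Gnas, the stimulatory G protein, at 0.14 ± 0.06. Circulating hormone and vasoactive genes had 5 above 0 and 12 below 0 among 17. Nppb, the B-type natriuretic peptide, differed by 0.47 ± 0.21 (SE, adjusted p = 0.326), with overlapping groups, and Rgs2, a regulator of G protein signalling, by -0.32 ± 0.17.

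The last 2 lists were mixed. Oxidative stress defence had 11 above 0 and 14 below 0 among 25. This list had 2 higher and 2 lower at an unadjusted p below 0.05 (all genes: 9.69% and 5.12%). Nampt, the rate-limiting enzyme of NAD salvage, differed by -0.22 ± 0.07 (SE, adjusted p = 0.219). Cat, catalase, had values of 0.13, -0.09 and -0.10 at ZT23 and -0.02, -0.39 and -0.59 at ZT03. ZT03 replicate 1 lay within the ZT23 range, the difference was -0.31 ± 0.11 (SE, adjusted p = 0.23), and Cat passed without that array (0.0192). Cell cycle and growth arrest genes had 13 above 0 and 11 below 0 among 24, with Tob1, an antiproliferative factor, at -0.36 ± 0.12 (SE, adjusted p = 0.226) and Gadd45b, induced by stress, at 0.16 ± 0.06.

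**Figure D4:**
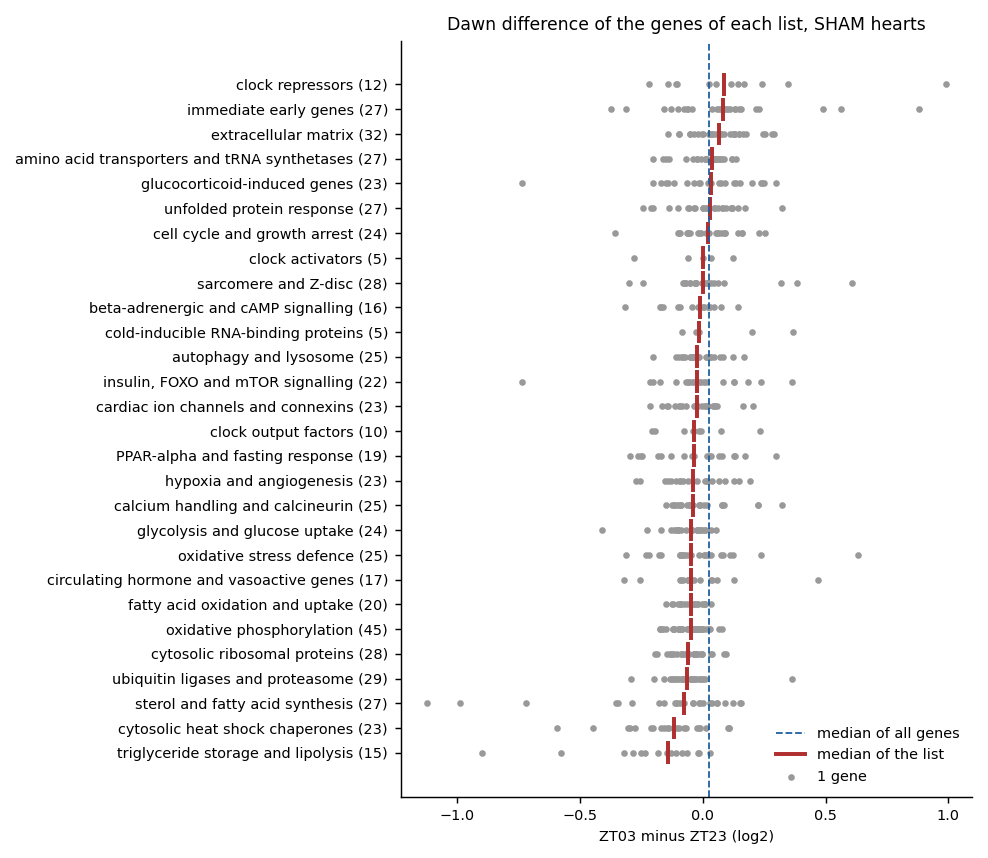
ZT03 minus ZT23 (log2) in SHAM hearts for every measured gene of 28 lists (grey points, number of genes in parentheses), with the median of each list (red) and of all genes (dashed, 0.025). Medians run from -0.144 for triglyceride storage to 0.084 for clock repressors, and single genes spread far wider than the medians.

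Cell type markers bear on how far cell content differed between the groups. Of 15 cardiomyocyte markers 12 were below 0, with differences from -0.15 to 0.09 and a median of -0.012. Markers of neutrophils, lymphocytes and platelets lay mostly above 0, with 8 of 9 neutrophil, 9 of 10 T lymphocyte, 6 of 7 B lymphocyte and 6 of 6 platelet markers (all genes: 61.1%). Their medians were 0.136, 0.13, 0.086 and 0.138. At an unadjusted p below 0.05, 2, 0, 1 and 1 of them were higher (all genes: 9.69%). Other cell types also lay mostly above 0, with 7 of 10 thymocyte, 9 of 13 macrophage, 7 of 9 Schwann cell and 5 of 7 hepatocyte markers. Erythroid markers had 3 of 5 above 0. None passed with all arrays. The neutrophil means were -0.05, -0.01 and 0.11 at ZT23 and 0.18, 0.07 and 0.20 at ZT03. The platelet means were -0.276, 0.034 and 0.014 at ZT23 and -0.004, 0.458 and -0.22 at ZT03, so only ZT03 replicate 2 stood high. Endothelial, fibroblast, smooth muscle and macrophage markers had medians of -0.006, -0.051, -0.034 and 0.021, atrial and mesothelial markers -0.021 and 0.02. Thymocyte, erythroid, skeletal muscle, airway, Schwann cell and hepatocyte markers had medians of 0.061, 0.034, 0.06, 0.052, 0.04 and 0.06, and brown adipocyte markers -0.122. Without ZT03 replicate 1, Cxcr2, Pax5 and Tnni2 passed on the higher side and Tcf21 on the lower side. The part of blood cells in the gene differences was not tested.

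The dawn step was then set against the dusk step, ZT11 to ZT15, in the same fit. The difference between the steps passed for 63 genes (0.508%), 24 higher (0.194%) and 39 lower (0.315%) at dawn. In all 63 the steps had opposite signs, which such a test favours, and 16 also passed at dusk by themselves. The dusk step was the larger in size for 42 and the dawn step for 21. Nr1d1 led, with a dusk step of -0.58 ± 0.08 and a difference between steps of 1.57 ± 0.11 (SE, adjusted p = 1.95e-06). G0s2 was next, with a dusk step of 1.43 ± 0.16 against -0.90 at dawn and a difference of -2.33 ± 0.23 (SE, adjusted p = 8.08e-05). Dbp fell at dusk by 1.13 on the log2 scale (adjusted p = 0.00252), against a dawn difference of 0.23, and the difference between steps was 1.36 ± 0.21 (SE, adjusted p = 0.00845).

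Of the 23 measured genes of the chaperone list, 6 were among the 63 (all genes: 0.508%): Dnaja1, Dnajb1, Ahsa1, Chordc1, Hsp90aa1 and Hsph1. All 6 were lower at dawn and higher at dusk, and such opposite signs are favoured by the test. The dusk step was 0.64 ± 0.10 for Dnaja1 and 0.43 ± 0.12 for Dnajb1, and the differences between steps were -0.91 ± 0.14 (SE, adjusted p = 0.0082) and -1.03 ± 0.17 (SE, adjusted p = 0.0193). Srsf5 had a dusk step of -0.78 ± 0.09 and a difference of 0.98 ± 0.13 (SE, adjusted p = 0.00345). Bmp6 differed between steps by -0.61 ± 0.09 (SE, adjusted p = 0.00698), Rnd3, a small GTP-binding protein, by -0.52 ± 0.08 (SE, adjusted p = 0.0082), Frat2 by 0.55 ± 0.09 (SE, adjusted p = 0.0131) and Tppp3, a tubulin-binding protein, by -0.77 ± 0.13 (SE, adjusted p = 0.021). The other listed clock genes among the 63 were Nr1d2 and Nfil3. The immediate early genes Nr4a1, Ier3 and Klf4 and Chac1 and Atf6 of the unfolded protein response were also among them.

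The number for the difference between steps moved with the arrays. It was 157 without ZT03 replicate 1. It was 17, 28 and 15 without ZT23 replicates 1, 2 and 3, 36 and 34 without ZT03 replicates 2 and 3, 20 without ZT11 replicate 1, and 12, 17 and 20 without ZT15 replicates 1, 2 and 3. With only the 12 arrays of both steps it was 7. Nr1d1, G0s2, Srsf5, Bmp6 and Rnd3 passed under each alternative run. Dbp lost the call after quantile normalization (adjusted p = 0.185). Tppp3 lost it without ZT23 replicate 3 (0.051), ZT15 replicate 1 (0.0575) or ZT15 replicate 2 (0.0529). Frat2, Dnajb1, Dbp, Dnaja1 and Tppp3 lost it with only the 12 arrays (0.0584 to 0.083).

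**Figure D5:**
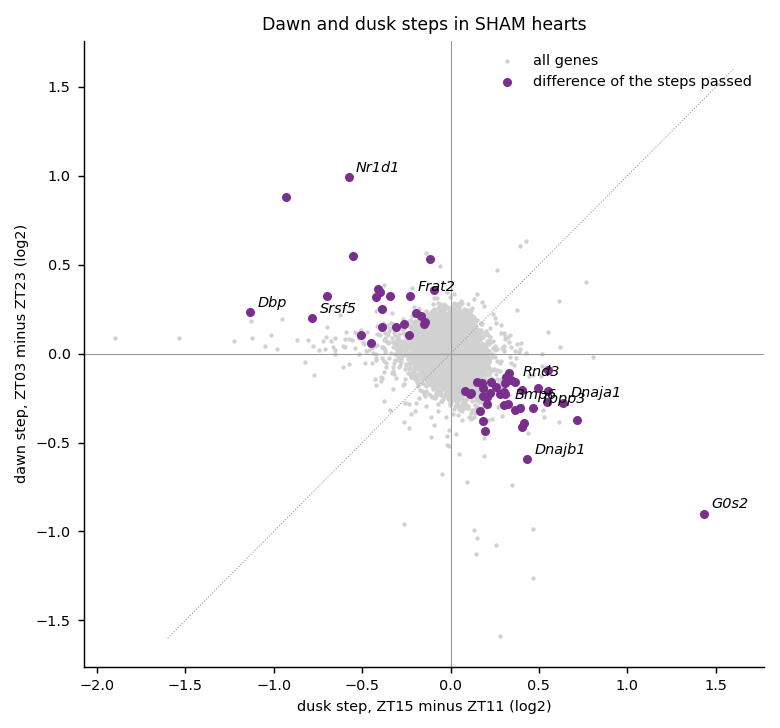
Dusk step (ZT15 minus ZT11, log2, horizontal) against dawn step (ZT03 minus ZT23, log2, vertical) for every gene in SHAM hearts (grey), with the 63 genes whose steps differed in purple and the 10 with the smallest p named. The purple genes lie at the upper left and lower right, and the dotted line marks equal steps.

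The TAC hearts offer the step from ZT23 to ZT03 in other mice. Nr1d1 rose there too, with TAC values of -0.10, -0.28 and -0.29 at ZT23 and 1.20, 1.48 and 0.77 at ZT03 and a difference of 1.37 ± 0.13 (SE, adjusted p = 0.000109). The groups were separate and the change did not differ from that in SHAM hearts past the threshold (difference 0.38 ± 0.16, adjusted p = 0.657). In all, 53 genes passed in TAC hearts (0.428%), 11 higher (0.0888%) and 42 lower (0.339%), and Nr1d1 was the only gene that passed in both. Of the 53, 43 had the same sign in SHAM hearts and 11 of these had an unadjusted p below 0.05 there. Over all genes, 71.1% had the same sign, and 14.8% had such a p in SHAM hearts, whatever their sign in TAC hearts. Of the 11 higher genes in TAC hearts, 4 were atrial markers, Myl7, Sln, Myl4 and Stard10, and atrial markers had a median of 0.266 with 9 of 10 above 0. In SHAM hearts that median was -0.021, and no atrial marker had an unadjusted p below 0.05. Airway marker means were 1.41 in TAC ZT23 replicate 1 and 1.09 in TAC ZT03 replicate 3, against -0.06 to 0.09 in the other 4 arrays. The part of these tissues in the TAC result was not tested. The TAC count moved with single arrays: it was 2 without TAC ZT03 replicate 1 or 2, 708 without TAC ZT03 replicate 3, 8 without TAC ZT23 replicate 1 and 15 without TAC ZT23 replicate 2.

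Across all 12393 genes, 71.1% had the same sign in SHAM and TAC hearts, and the differences correlated with r = 0.38 over genes, which are not independent replicates. Of the 1836 genes at an unadjusted p below 0.05 in SHAM hearts, 1551 (84.5%) had the same sign in TAC hearts. Nr1d2 rose in TAC hearts by 0.79 ± 0.16 (SE, adjusted p = 0.0426), and Dbp and Arntl differed there by 1.09 ± 0.27 (SE, adjusted p = 0.0797) and -0.37 ± 0.11 (SE, adjusted p = 0.11). G0s2, Tnfrsf12a and Dnajb1 differed in TAC hearts by -0.11 ± 0.25, -0.56 ± 0.21 and -0.17 ± 0.18, so Tnfrsf12a had the opposite sign. The chaperone list had a median of -0.096 in TAC hearts, with 18 of 23 members below 0, against 0.032 and 4941 below 0 for all 12393 genes. The matrix list had -0.325 with 29 of 32 members below 0, against 24 of 32 above 0 in SHAM hearts. Fibroblast markers had a median of -0.332 in TAC hearts with 12 of 13 below 0, and macrophage markers -0.256 with 10 of 13 below 0. Their part in the matrix values was not tested.

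The change from ZT23 to ZT03 differed between TAC and SHAM hearts for 4 genes (0.0323%), 1 higher and 3 lower in TAC, against 820 at an unadjusted p below 0.05 (6.62%). Adamts1, an extracellular protease, had SHAM values of -0.07, -0.10 and -0.10 at ZT23 and 0.18, 0.23 and 0.10 at ZT03 and TAC values of 0.47, 0.14 and 0.22 at ZT23 and -0.62, -0.53 and -0.63 at ZT03. All SHAM ZT03 arrays lay above the SHAM ZT23 arrays, all TAC ZT03 arrays lay below the TAC ZT23 arrays, and the difference of the changes was -1.13 ± 0.19 (SE, adjusted p = 0.0146). Zmynd8, a chromatin reader, differed by -0.27 ± 0.07 in SHAM and 0.30 ± 0.07 in TAC hearts, and a difference of 0.57 ± 0.10 (SE, adjusted p = 0.0146). Gfpt2, an enzyme of the hexosamine pathway, differed by -0.35 ± 0.06 in TAC hearts against 0.14 ± 0.06 in SHAM hearts, and Amot, angiomotin, by -0.37 ± 0.07 against 0.05 ± 0.04. Their differences were -0.49 ± 0.09 (SE, adjusted p = 0.0146) and -0.43 ± 0.08 (SE, adjusted p = 0.0176), the latter -1.09 on the Amot probe set with the largest SD.

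None of the 4 passed without SHAM ZT23 replicate 2, SHAM ZT23 replicate 3, SHAM ZT03 replicate 3, TAC ZT03 replicate 1 or TAC ZT03 replicate 2, where no gene did. The 4 genes kept their direction, and 3 genes of the whole table passed without TAC ZT23 replicate 1, none of them these 4. The count was 8 without TAC ZT23 replicate 2, 12 without TAC ZT23 replicate 3 and 89 without TAC ZT03 replicate 3. Adamts1 had an adjusted p from 0.0102 to 0.076 over the arrays left out.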

How the data were processed

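Values are the authors' deposited log2-like values of 22690 probe sets on 36 single-channel Affymetrix arrays, 1 per mouse. Per the labels' protocols, total RNA was extracted with Trizol and biotinylated. How probes were summarised and normalized, and the base of the logarithm, is not given in the sources used here. The deposited values are taken as log2. In these deposited values each probe set has a median of 0 within SHAM and within TAC arrays. No signal over background comes with them, so the number of arrays sets the precision.

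Probe sets with 1 gene symbol (20380) were averaged to 12393 genes, leaving out 13 controls, 691 with several symbols and 1606 with none. Groups follow the titles. limma 3.58.1 (R 4.3.3) fitted 6 group means to the 18 SHAM arrays, likewise to TAC, and all 36 for the TAC minus SHAM difference. Fits were tested on simulated data. The replicate numbers were not used to pair the arrays in the main fits. Deviations of same-numbered ZT23 and ZT03 arrays correlated at 0.37, 0.07 and 0.18. Arrays of different numbers were not compared across the times, so these values cannot tell whether the numbers mark a shared effect.

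Members and lists were chosen with earlier results of these data known. Named were up to 12 genes per direction by size among those that passed, or next by p, leaving out clone-like symbols, all clock genes, list members that passed or otherwise the 2 with the smallest p, and up to 10 by p for the dawn minus dusk and TAC minus SHAM tests. Genes outside this rule (Egr1, Fasn, Adipoq, Cidec, Hspa1a, Hspa1b, Hspb1, Hspa8, Hspa4, Cryab, Chordc1, Hsp90aa1, Hsph1, Klf4, Plin4, Psmb4, Psma4, Col8a1, Col1a1, Col1a2, Col3a1, Cxcr2, Tnni2, Myl7, Sln, Myl4, Stard10) were chosen after their values were seen. Alternatives covered arrays used, quantile and median normalization, array weights, eBayes options, probe set choice, an SD filter, the replicate block, and each array left out. Promoter windows are from RefSeq GRCm38.p6. Python 3.11.15 with pandas 2.3.3 and matplotlib 3.10.9 was used for the rest.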

Additional observations from a re-analysis of the deposited data

Results flagged for a closer look

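The ZT23 to ZT03 difference was not the same in TAC and SHAM hearts for 4 genes, by the interaction term of limma's fit (Benjamini-Hochberg adjusted p from 0.0146 to 0.0176). The TAC minus SHAM values were -1.13 for Adamts1, 0.57 for Zmynd8, -0.49 for Gfpt2 and -0.43 for Amot. The direction of each was the same in every alternative run, and the calls were not: with only the 12 arrays of both times Adamts1 alone passed, and after quantile normalization Zmynd8 alone (Adamts1 adjusted p = 0.271).

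The dawn and dusk steps of SHAM hearts differed for 63 genes by the contrast of the steps. The 10 with the smallest p had dawn minus dusk values of 1.57 for Nr1d1, -2.33 for G0s2, 0.98 for Srsf5, -0.61 for Bmp6, 1.36 for Dbp, -0.91 for Dnaja1, -0.52 for Rnd3, 0.55 for Frat2, -1.03 for Dnajb1 and -0.77 for Tppp3.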

How the results depend on the processing

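With all arrays 1 gene passed from ZT23 to ZT03 in SHAM hearts. The count was 2 with all 36 arrays, 5 after quantile normalization, 1696 with array weights, 2 among genes with an SD at or above the median and 4 without the array with high thymocyte markers, and it ranged from 1 to 398 with arrays left out. Nr1d1 passed in each. The number of other 4-h steps with more genes than dawn was 5, was 1 with array weights, and ranged from 1 to 5 with arrays left out. The dawn minus dusk count of 63 was 7 with only the 12 arrays of both steps, 575 with array weights and 38 on the probe set with the largest SD, and ranged from 12 to 157 with arrays left out. The TAC count of 53 was 3 with only the 6 arrays, 9 after quantile normalization, 4213 with array weights, 32 on the probe set with the largest SD and 96 among genes with an SD at or above the median, and ranged from 2 to 708 with arrays left out. The TAC minus SHAM count of 4 was 1 with only the 12 arrays, 1 after quantile normalization, 792 with array weights, and ranged from 0 to 89 with arrays left out. With the replicate block the counts were 1 for SHAM dawn, 68 for dawn minus dusk, 18 for TAC and 5 for TAC minus SHAM. Fitting fewer arrays leaves fewer residual degrees of freedom; the cause of the other shifts was not tested. The adipocyte covariate, the lists without single arrays and the step counts were alternatives chosen after seeing the data. Among the named genes with a test of their own, none that passed changed sign under an alternative run. Centred values carry no signal over background, so dim probe sets could not be set aside.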
